A study of Mus musculus with 69 samples.

Results

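The genes of cholesterol and fatty acid synthesis were followed as a group of 37 genes in mouse bone marrow-derived macrophages (BMDMs), out of 24537 genes listed in each expression table. The 37 members were taken by gene symbol among genes with at least 1 TPM (a transcript level scaled for gene length and library depth) in 2 libraries. The list was drawn up with earlier results of these data known. They comprised 19 enzymes of sterol synthesis, 5 regulators of the SREBP pathway, 3 genes of sterol uptake, sterol transport and lipid phosphate metabolism, 2 sterol efflux transporters and 8 genes of fatty acid synthesis. All 37 met this limit in each of the 3 tables that were tested, which the rule of selection set in advance.

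Cells make cholesterol from acetyl-CoA through the mevalonate pathway, and the same precursor feeds fatty acid synthesis. The transcription factors encoded by Srebf1 and Srebf2 sit inactive in the endoplasmic reticulum with their escort Scap. When membrane sterol is low, Scap carries them to the Golgi for cleavage and they switch on both sets of enzymes, and when sterol is high, Insig1 and Insig2 hold them back. In macrophages, which take up lipid from dead cells and lipoproteins, the transporters Abca1 and Abcg1 export sterol and are switched on by liver X receptors, which also act on Srebf1, the desaturase genes and Mylip. IL-4 is a cytokine that drives macrophages towards the alternatively activated state.

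BMDMs came from female mice of 8 to 12 weeks and were differentiated with M-CSF for 7 days. They were left untreated (basal) or given IL-4 at 20 ng/ml. The first table held 5 strains, untreated and treated for 24 hours, with 3 libraries per group except for 2 of basal PWK. They were C57BL/6J (called C57 here), BALB/cJ (BALB) and NOD/ShiLtJ (NOD), and the wild-derived strains PWK/PhJ (PWK) and SPRET/EiJ (SPRET). The second followed C57 and SPRET at basal and after 1, 6 and 24 hours, with 2 libraries per group, and the third followed Egr2 fl/fl and LyzM-Cre Egr2 fl/fl mice at the same times, again with 2 libraries per group. Both genotypes of the third table carry the floxed Egr2 allele, and LyzM-Cre, expressed in myeloid cells, deletes it in the second of them. The Egr2 fl/fl cells are not labelled with LyzM-Cre, so deletion of Egr2 and presence of Cre cannot be told apart. The strain background of these mice is not in the labels. Macrophages of F1 mice from C57 and SPRET and from C57 and NOD, with 2 libraries each at basal and after 24 hours of IL-4, gave levels for each parental allele.

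The libraries held 7.02 to 22.5 M tags in the 5 strains, 5.70 to 24.0 M in the time course and 4.69 to 32.9 M in the Egr2 table. Levels are TPM, and differences are log2 fold changes on log2(TPM + 1), which understates the change of genes near 1 TPM. A member "rose", "fell" or "was higher" where limma gave an adjusted p under 0.05 over all genes tested, and a call past 2-fold also had a fold change above 2. Nothing in the labels says that libraries came from separate animals, so p-values measure the spread between these samples. Strain and sequencing batch cannot be told apart. In bulk RNA, fewer cells of a type and less RNA per cell cannot be told apart either. Of 7 macrophage marker genes, including Adgre1, Csf1r and Lyz2, 6 or 7 were above 1 TPM in every group of the 5 strains. Their summed level was 9325 to 9741 TPM in PWK and 16579 to 30188 in the other strains, and in C57 it went from 23233 to 23949 TPM at basal to 16579 to 17831 after IL-4. The summed level of 4 neutrophil genes was 532 to 589 TPM in PWK, 244 to 394 in SPRET and 14.5 to 129 in the other strains, with Ly6g at 0 in most groups, and in C57 it went from 106 to 129 TPM at basal to 16.3 to 23.7 TPM after IL-4. The summed levels of the other lists stayed at most at 1.57 TPM for T cells, 0.407 for B cells, 2.36 for fibroblasts, 9.03 for mast cells and basophils (in SPRET) and 1.35 for dendritic cells in these libraries. The part of these cells in the differences between strains was not tested.

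Promoter sequences show how the members differ in the elements through which SREBP and its partners are known to act. In RefSeq (GRCm38.p6), 29 of the 37 members had a promoter entry, with 37 promoters in all, taken as 250 bases before to 50 bases after the start. The sterol response element TCACNCCAC, searched on both strands, was present in 1 of the 37 promoters (2.70%), that of Hmgcs1, against 1.24% of all 32851 promoters. CCAAT, the site of the SREBP partner NF-Y, was found on either strand in 23 of the 37 promoters (62.2%, against 37.4% of all promoters), which belong to 22 members. The GC box GGGCGG was found in 27 of the promoters (73.0%, against 35.7%), from 23 members, and the E-box CACGTG in 7 (18.9%, against 7.15%), from 6 members. Below are the 250 bases before the start of 4 members, from 5′ to 3′ on the strand of the gene, with capitals marking the sterol response element and CCAAT in either orientation. Hmgcs1 (chr13:119690101-119690350, plus strand) is shown as the member with the sterol response element, 137 bases before the start. Mvk (chr5:114444019-114444268, plus strand) holds CCAAT 5 times, Insig1 (chr5:28071162-28071411, plus strand) is the feedback regulator, and Fads2 (chr19:10101504-10101753, minus strand) is the member whose response to IL-4 differed most between strains and has neither motif.
Hmgcs1: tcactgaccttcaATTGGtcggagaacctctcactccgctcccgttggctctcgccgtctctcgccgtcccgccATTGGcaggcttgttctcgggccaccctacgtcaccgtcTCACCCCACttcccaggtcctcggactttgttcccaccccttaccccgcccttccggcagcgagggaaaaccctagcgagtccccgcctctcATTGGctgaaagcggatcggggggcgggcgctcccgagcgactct
Mvk: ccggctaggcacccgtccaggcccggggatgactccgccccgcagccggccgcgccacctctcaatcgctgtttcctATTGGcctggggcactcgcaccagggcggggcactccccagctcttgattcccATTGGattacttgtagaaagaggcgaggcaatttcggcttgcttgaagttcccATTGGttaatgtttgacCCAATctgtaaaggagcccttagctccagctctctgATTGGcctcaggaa
Insig1: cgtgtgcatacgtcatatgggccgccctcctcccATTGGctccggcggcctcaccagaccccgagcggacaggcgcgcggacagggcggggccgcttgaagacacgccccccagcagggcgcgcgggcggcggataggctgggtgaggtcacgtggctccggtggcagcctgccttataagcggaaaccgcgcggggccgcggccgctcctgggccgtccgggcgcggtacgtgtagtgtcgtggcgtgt
Fads2: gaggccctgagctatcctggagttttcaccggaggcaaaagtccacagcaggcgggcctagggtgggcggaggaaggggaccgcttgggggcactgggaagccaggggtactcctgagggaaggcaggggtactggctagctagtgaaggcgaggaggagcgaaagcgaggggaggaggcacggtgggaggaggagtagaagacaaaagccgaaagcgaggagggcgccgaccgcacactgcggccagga
The CCAAT letters of Hmgcs1 lie 237, 176 and 45 bases before the start, and those of Mvk lie 173, 120, 67, 50 and 14 bases before it. A match of letters is a description of this window and not of binding.

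Under basal conditions the members differed widely between strains, with the sterol enzymes high in SPRET and BALB and most members low in NOD. In SPRET, 27 of 37 members were higher than in C57 (35.5% of all genes tested) and 5 were lower (32.9%). In BALB, 30 were higher (24.8%) and 5 lower (18.4%). NOD had 3 higher (20.1%) and 31 lower (54.1%), and PWK had 21 higher (19.7%) and 10 lower (41.5%). Past 2-fold, 17 members were higher in SPRET (8.58% of all genes) and 2 lower (9.52%), and 9 were higher in BALB (2.65%) and 0 lower (2.17%). NOD had 1 member past 2-fold higher (5.15%) and 16 lower (11.7%), while PWK had 6 higher (4.49%) and 3 lower (8.81%). The median difference of the members from C57 was -0.89 in NOD, 0.33 in PWK, 0.62 in BALB and 0.97 in SPRET on the log2 scale, beside medians of -0.30, -0.16, 0.04 and 0.02 over all genes. The sterol enzymes alone had medians of -0.80, 0.56, 0.85 and 1.18.

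SPRET had the highest mean level of the 5 strains for 21 of the 37 members (35.4% of all genes) and NOD the lowest for 30 (41.3%). The ratio of the highest to the lowest strain ran from 1.51 for Insig2 to 80.7 for Idi1, for which every library of NOD, the lowest strain, was under 1 TPM. Scaling the libraries by the median ratio took the all-gene medians in NOD and PWK to 0, and it left 4 members higher and 30 lower in NOD and 22 higher and 7 lower in PWK. Among all genes called, the share that was higher moved from 27.1% to 51.1% in NOD and from 32.2% to 49.9% in PWK.

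**Figure D1:**
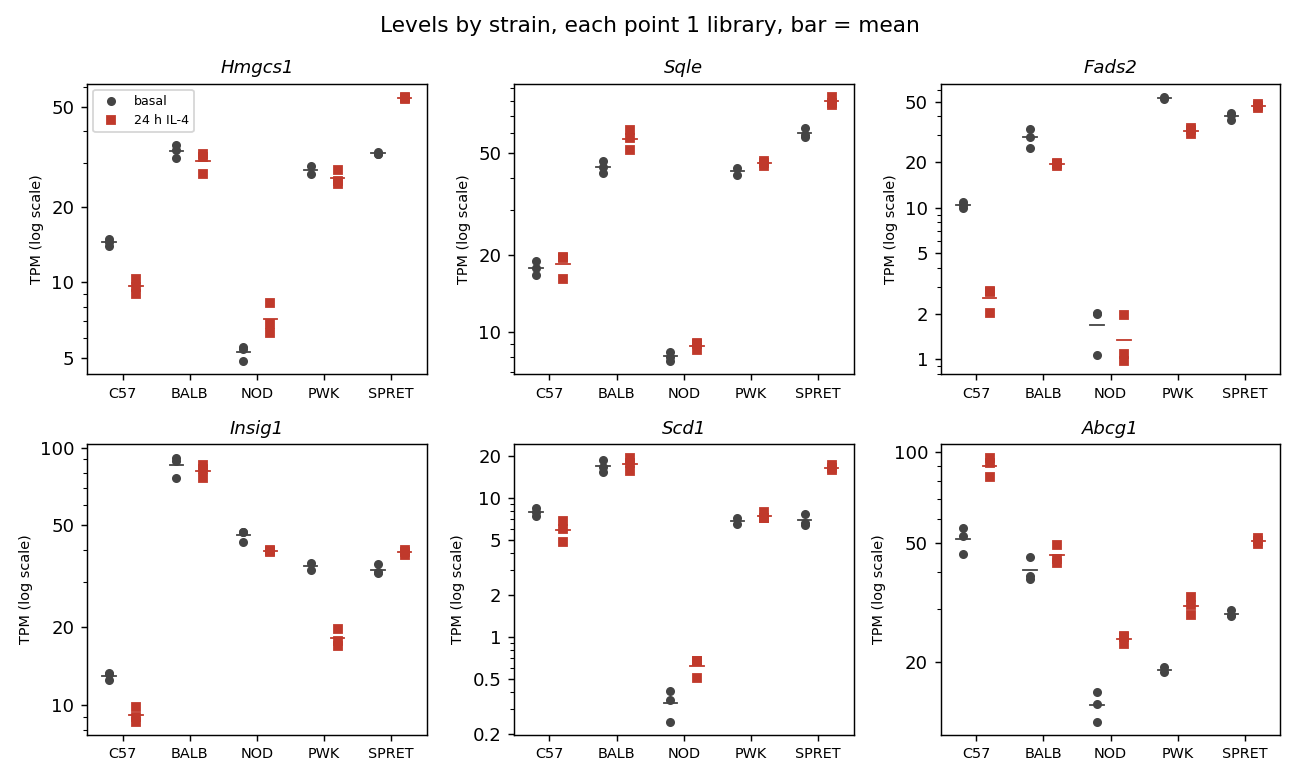
TPM on log axes of 6 members in the 5 strains, with a point for each library (2 in basal PWK, 3 elsewhere), circles for basal, squares for 24 hours of IL-4 and a bar for the mean. The basal libraries of NOD are the lowest for Hmgcs1, Sqle, Fads2, Scd1 and Abcg1, while for Insig1 those of C57 are the lowest.

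Among the sterol enzymes, Acat2, which joins acetyl-CoA units at the head of the pathway, measured 7.66, 4.93 and 6.75 TPM in the basal C57 libraries, 21.8 and 23.6 in PWK and 31.5, 35.4 and 32.9 in SPRET (SPRET against C57: log2 fold change 2.22, SE 0.13, adjusted p = 1.2e-13). All libraries of PWK and SPRET lay above those of C57. Reads of this gene may be shared with its near copy Acat3. Cyp51, the lanosterol demethylase, stood at 6.95, 6.19 and 6.92 TPM in C57 and 33.6, 32.7 and 32.4 in SPRET (log2 fold change 2.14, SE 0.10, adjusted p = 4.7e-16), and BALB at 17.1, 13.0 and 14.8 and PWK at 14.1 and 13.1 lay between them. Mevalonate kinase, Mvk, stood at 16.6, 16.6 and 18.8 TPM in C57 and 59.0, 56.7 and 58.0 in SPRET (log2 fold change 1.69, SE 0.07, adjusted p = 9.52e-17). The methylsterol oxidase Msmo1 stood at 50.9, 50.9 and 50.1 TPM in C57 and 163, 171 and 164 in SPRET (log2 fold change 1.69, SE 0.07, adjusted p = 1.87e-16). For each of the 4 enzymes the SPRET libraries were above every C57 library.

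Idi1, which isomerises the isoprene unit, was near the lower end of detection outside SPRET. It measured 0.154, 0.0580 and 0.231 TPM in C57 and 4.14, 3.95 and 3.77 in SPRET (log2 fold change 2.11, SE 0.09, adjusted p = 8.62e-17), and no library of BALB, NOD or PWK passed 0.501 TPM at basal. Among basal libraries only those of SPRET thus reached the 1 TPM of the filter. The gene met it there through the strain where it was high, so its test is no independent support for the difference. Fdps, which makes farnesyl diphosphate, measured 42.2, 43.4 and 48.5 TPM in C57, 12.6, 11.9 and 12.2 in NOD and 111, 111 and 114 in SPRET. Its 3 strains did not overlap, with a log2 fold change of -1.79 in NOD (adjusted p = 2.46e-15) and 1.31 in SPRET (adjusted p = 9.78e-13). Ggps1, which makes the geranylgeranyl donor of protein prenylation, went the other way from most enzymes, with differences of -0.64 in BALB, -0.49 in PWK and -0.61 in SPRET, all called lower than C57.

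Among the regulators, Insig1 separated C57 from the other 4 strains. It measured 13.2, 13.1 and 12.5 TPM in C57, 89.0, 76.4 and 91.5 in BALB and 46.8, 43.0 and 46.9 in NOD, while PWK stood at 33.6 and 35.7 and SPRET at 32.6, 35.4 and 32.7. The log2 fold change against C57 was 2.63 in BALB (SE 0.07, adjusted p = 7.05e-21), 1.74 in NOD, 1.35 in PWK and 1.31 in SPRET. All libraries of these strains lay above the C57 libraries, and PWK and SPRET overlapped each other. In NOD, Insig1 was thus high while most of the enzymes were low.

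Srebf2, the factor tied most closely to sterol synthesis, measured 30.8, 36.2 and 27.8 TPM in C57, 15.9, 20.0 and 19.9 in NOD and 62.4 and 62.2 in PWK, with SPRET at 53.6, 56.9 and 54.8 and BALB at 38.3, 38.0 and 40.5. Its difference from C57 was -0.73 in NOD, 0.96 in PWK, 0.79 in SPRET and 0.30 in BALB, and all 4 passed the test. The order of its levels was PWK, SPRET, BALB, C57 and NOD, without overlap between neighbours. Srebf1, tied more to fatty acid synthesis, measured 29.2, 30.8 and 25.5 TPM in C57, 8.39, 9.24 and 9.15 in NOD, 21.5, 22.1 and 23.9 in BALB, 23.9 and 22.7 in PWK and 26.4, 26.6 and 26.6 in SPRET. NOD was the strain that stood apart, at -1.57 (SE 0.07, adjusted p = 1.56e-16), and SPRET did not pass the test against C57 (-0.10, adjusted p = 0.208). Scap passed only in SPRET (0.55), and Insig2 differed by -0.22 to 0.33 over the strains.

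Among the fatty acid genes, the basal differences from C57 were largest for Scd2 and Scd1 in NOD. Scd2, a stearoyl-CoA desaturase, measured 90.9, 95.1 and 84.8 TPM in C57 and 6.91, 5.97 and 6.77 in NOD (log2 fold change -3.60, SE 0.10, adjusted p = 1.39e-20), with 159.6, 136 and 138 in BALB and 40.5, 41.3 and 38.8 in SPRET. Its paralog Scd1 measured 7.92, 8.39 and 7.41 TPM in C57, 0.351, 0.245 and 0.406 in NOD (log2 fold change -2.74, SE 0.10, adjusted p = 7.11e-18) and 18.7, 15.2 and 16.6 in BALB. For both desaturases every NOD library was below, and every BALB library above, every C57 library. The 2 genes are similar in sequence, and how reads were split between them was not tested. Both lie on chromosome 19, Scd2 at 44293676-44306862 on the plus strand and Scd1 at 44394450-44407709 on the minus strand (mm10).

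Fads2, the desaturase that starts polyunsaturated fatty acid synthesis, measured 10.5, 9.94 and 11.0 TPM in C57, 53.9 and 52.3 in PWK and 40.8, 42.4 and 38.1 in SPRET, with BALB at 33.1, 24.9 and 29.3 and NOD at 1.06, 1.98 and 2.00. Its difference from C57 was 2.24 in PWK (SE 0.15, adjusted p = 1.79e-12), 1.85 in SPRET, 1.39 in BALB and -2.12 in NOD. None of the 5 strains overlapped another. Fads1, a desaturase of the same pathway on chromosome 19, was higher in BALB (0.90) and PWK (1.23), lower in NOD (-0.53) and did not pass the test in SPRET (-0.01). Fasn, the fatty acid synthase, Acaca, the acetyl-CoA carboxylase, Acly, which supplies cytosolic acetyl-CoA, and Elovl6, an elongase, were all lower in NOD, with differences of -1.18, -0.54, -1.55 and -0.61.

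Like most synthesis genes, the efflux transporters were lower in NOD than in C57, but Abcg1 was lower in the other strains as well. Abcg1 measured 52.4, 55.7 and 45.7 TPM in C57, 12.6, 14.5 and 15.9 in NOD (log2 fold change -1.77, SE 0.08, adjusted p = 6.78e-16), 19.2 and 18.5 in PWK, 28.7, 29.8 and 28.3 in SPRET and 44.7, 37.7 and 38.7 in BALB. Each of the 4 strains was lower than C57 by the test, and all libraries lay below the lowest C57 library. Abca1 measured 16.7, 20.2 and 15.9 TPM in C57, 5.07, 5.26 and 5.67 in NOD, 7.16 and 6.75 in PWK, 14.6, 11.3 and 11.5 in BALB and 26.1, 27.5 and 24.9 in SPRET. SPRET was the strain in which Abca1 was higher than in C57 (0.55), while the other 3 were lower. Lpin1, a phosphatidate phosphatase, measured 3.30, 4.16 and 3.74 TPM in C57 and 0.369, 0.248 and 0.359 in NOD (log2 fold change -1.83, SE 0.11, adjusted p = 2.17e-13), with every NOD library under 0.4 TPM. Stard4, a cytosolic sterol carrier, was lower in NOD (-1.60) and higher in SPRET (1.01), and Mylip, an E3 ligase for lipoprotein receptors, was lower than in C57 in all 4 strains (-1.42 to -0.47).

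At 24 hours of IL-4 more members fell than rose in C57, and more rose than fell in SPRET. In C57, 20 members fell (20.5% of all genes tested) and 3 rose (15.0%), and the 20 held 11 sterol enzymes, 5 fatty acid genes, Srebf1, Insig1, Stard4 and Mylip. In SPRET, 26 members rose (31.4%) and 2 fell (12.9%), and those that rose included 14 sterol enzymes and 7 of the 8 fatty acid genes. BALB had 3 that rose (9.45%) and 4 that fell (24.8%), NOD had 9 (28.2%) and 2 (6.07%), and PWK had 3 (18.6%) and 5 (6.08%). The median change of the members was -0.27 in C57 and 0.26 in SPRET, beside -0.04 and 0.11 over all genes. In BALB, NOD and PWK the median change of the members was -0.02, 0.07 and 0.00, beside -0.11, 0.12 and 0.08. Past 2-fold, 1 member fell in C57 (1.53%) and 2 rose in SPRET (2.32%), which were Fads2 in C57 and Scd1 and Scd2 in SPRET.

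The single member past 2-fold in C57 was Fads2, which went from 10.5, 9.94 and 11.0 TPM to 2.79, 2.02 and 2.83 (log2 fold change -1.70, SE 0.13, adjusted p = 1.04e-10). The C57 groups did not overlap. It also fell in PWK, from 53.9 and 52.3 to 30.7, 32.5 and 33.4 TPM (-0.70), and in BALB, from 33.1, 24.9 and 29.3 to 19.7, 19.3 and 18.9 TPM (-0.56). In SPRET it measured 46.6, 48.2 and 45.5 TPM after IL-4 (0.21, adjusted p = 0.218), and in NOD 0.974, 1.96 and 1.08 (-0.20, adjusted p = 0.256), neither of which passed the test. The SPRET libraries all lay above their basal group all the same, and after IL-4 the libraries of C57 and SPRET stood further apart than before it.

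Scd2 rose in SPRET from 40.5, 41.3 and 38.8 TPM to 97.9, 98.7 and 103 (log2 fold change 1.29, SE 0.10, adjusted p = 3.15e-11), and Scd1 rose from 6.39, 7.70 and 6.54 to 16.4, 15.9 and 17.2 (log2 fold change 1.15, SE 0.10, adjusted p = 5.41e-10). Neither gene had overlapping groups in SPRET. In C57, Scd1 fell from 7.92, 8.39 and 7.41 to 6.81, 5.93 and 4.81 TPM (-0.39, adjusted p = 0.00301), and Scd2 measured 118, 112 and 88.6 TPM after IL-4 (0.22, adjusted p = 0.0745). Scd2 also rose in NOD (0.80), PWK (0.38) and BALB (0.32), so that it rose in 4 of the 5 strains and did not pass the test in C57.

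The SREBP regulators moved less than the desaturases. Insig1 fell in PWK from 33.6 and 35.7 TPM to 19.7, 17.0 and 17.7 (log2 fold change -0.90, SE 0.07, adjusted p = 5.69e-10) and in C57 from 13.2, 13.1 and 12.5 to 9.78, 8.98 and 8.60 (-0.47). It stood after IL-4 at 39.9, 38.2 and 39.3 TPM in SPRET (0.22), 40.0, 39.4 and 39.7 in NOD (-0.19) and 82.4, 76.2 and 85.3 in BALB (-0.07, adjusted p = 0.417). Insig1 therefore fell in C57, NOD and PWK and rose in SPRET. Srebf1 after IL-4 was 25.1, 23.6 and 25.2 TPM in C57 (-0.20), 11.0, 10.8 and 12.8 in NOD (0.33), 32.2, 30.4 and 29 in SPRET (0.19), 24.8, 25.7 and 26.4 in BALB (0.18) and 24.7, 23.3 and 24.3 in PWK, where it did not pass the test. The fall in C57 and the rises in BALB, NOD and SPRET were small. With median-ratio scaling those in C57 (adjusted p = 0.0805), NOD (0.0728) and SPRET (0.602) no longer passed. Srebf2 passed the test in no strain, with changes from -0.18 to 0.08, and stood after IL-4 at 29, 25.6 and 28.2 TPM in C57, 41.0, 41.5 and 40.8 in BALB, 18.1, 19.2 and 20.7 in NOD, 64.3, 64.9 and 60.2 in PWK and 59.2, 56.3 and 57.7 in SPRET.

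Abcg1 rose in 4 of the 5 strains. It went to 96.1, 91.9 and 82.6 TPM in C57 (log2 fold change 0.80, SE 0.08, adjusted p = 1.02e-08), 51.9, 50.6 and 49.6 in SPRET (0.79), 24.3, 23.0 and 24.3 in NOD (0.70) and 30.9, 32.9 and 28.5 in PWK (0.68). In these 4 strains no IL-4 library overlapped a basal one. In BALB it measured 49.1, 44.1 and 42.8 TPM (0.16, adjusted p = 0.121), overlapping the basal libraries. Abca1 fell in BALB to 8.34, 7.14 and 8.14 TPM (-0.59) and in SPRET to 19.2, 20.3 and 20.4 (-0.37). It stood at 18.8, 17.1 and 15.2 TPM in C57, 5.55, 4.64 and 5.73 in NOD and 6.72, 6.70 and 6.26 in PWK, where it did not pass the test.

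**Figure D2:**
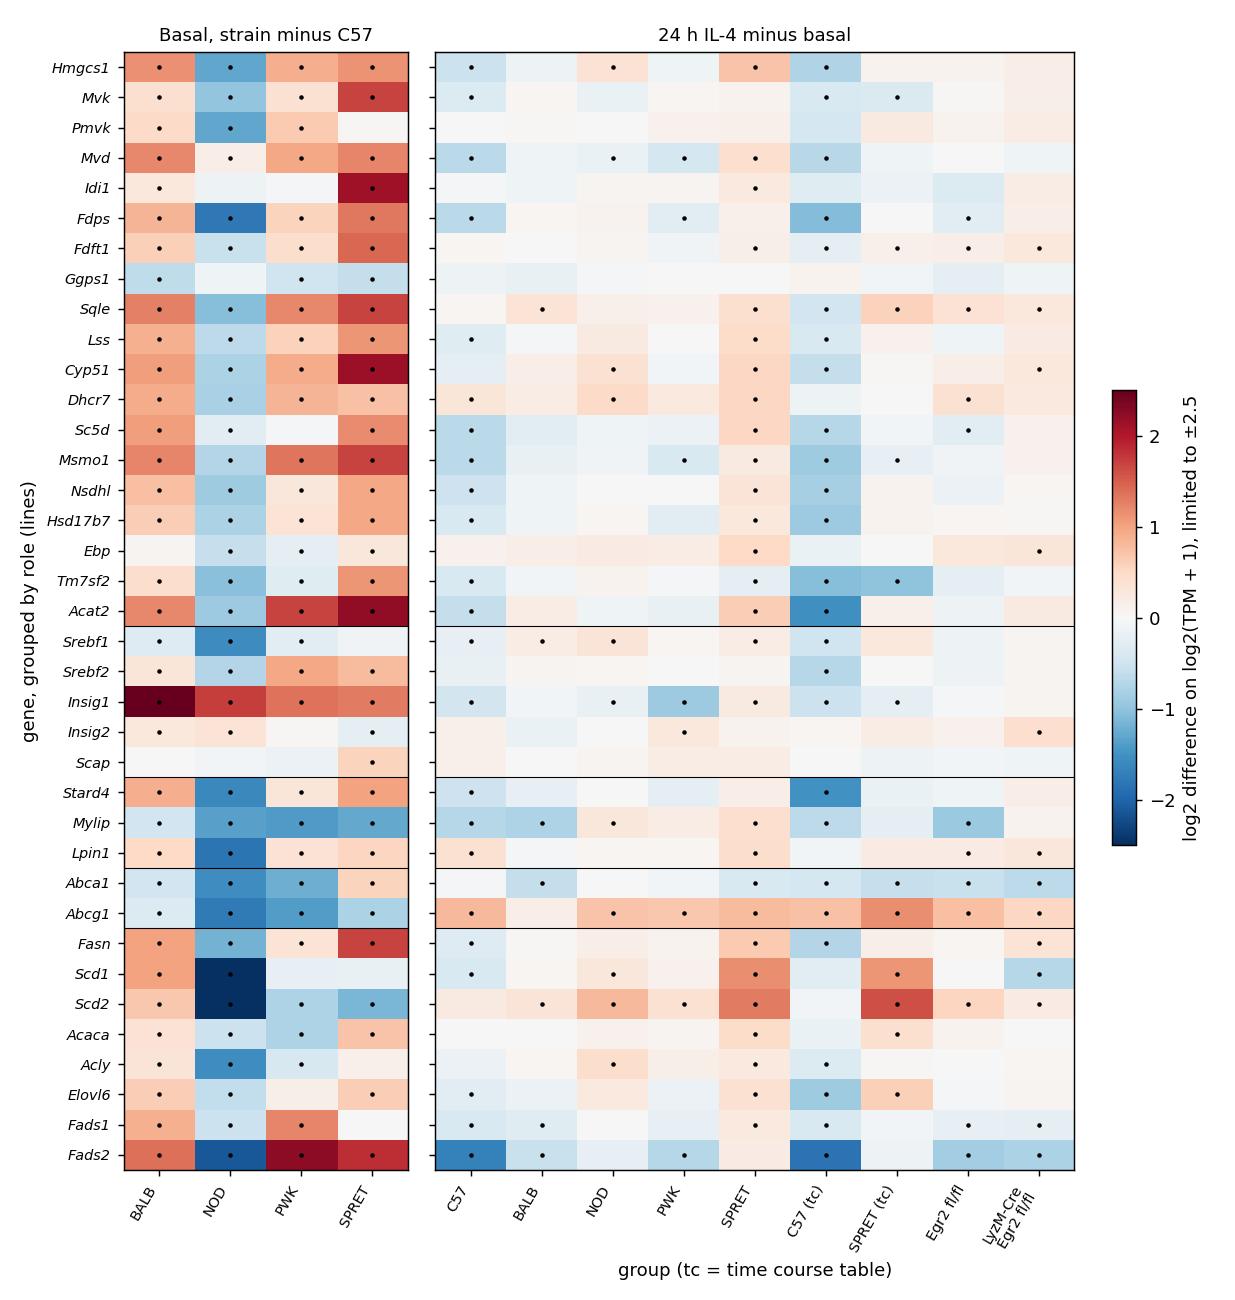
Log2 differences on log2(TPM + 1) of the 37 members, grouped by role between the lines, for basal levels against C57 (left) and for 24 hours of IL-4 against basal (right). Colours are limited to ±2.5 and dots mark an adjusted p under 0.05. The column of C57 holds 20 falls and that of SPRET 26 rises, while in the basal panel 31 members are lower in NOD.

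With median-ratio scaling, 18 members fell and 5 rose in C57, and 17 rose and 2 fell in SPRET, where Idi1, Fdft1, Msmo1, Nsdhl, Hsd17b7, Srebf1, Insig1, Acly and Fads1 no longer passed. The same scaling gave 10 rises and 4 falls in BALB, 7 and 5 in NOD and 2 and 10 in PWK, took the members' median to 0.10 in BALB, -0.07 in NOD and -0.10 in PWK, and moved the share of higher calls over all genes from 70.8% to 48.1% in SPRET, 82.3% to 41.7% in NOD, 75.3% to 49.4% in PWK and 27.6% to 57.6% in BALB. The count of falls in C57 was 12 in a fit of only the 2 groups compared, and without replicate 2 of every group the falls in PWK numbered 3.

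The response itself was compared between strains with the interaction term, taken as the response in a strain minus that in C57. In SPRET 25 members had a higher response (24.4% of all genes) and 0 a lower one (8.94%), and in NOD 22 were higher (26.0%) and 0 lower (7.32%). BALB had 13 higher (5.43%) and 2 lower (10.4%), and PWK 12 higher (16.8%) and 1 lower (5.58%). These 4 comparisons share the C57 libraries. The median difference in response of the members was 0.63 in SPRET, 0.47 in NOD, 0.28 in BALB and 0.18 in PWK, beside 0.16, 0.17, -0.07 and 0.13 over all genes. Past 2-fold, 8 members had a higher response in SPRET (1.83%), 2 in NOD (1.04%) and 1 in BALB (0.630%).

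The 8 in SPRET were Hmgcs1, Mvd, Sc5d, Acat2, Mylip, Scd1, Scd2 and Fads2. Hmgcs1, which commits acetyl units to the mevalonate pathway, went from 14.9, 14.5 and 14.0 to 10.3, 8.95 and 9.57 TPM in C57 (-0.54) and from 32.5, 33.0 and 32.6 to 54.3, 53.8 and 54.8 in SPRET (0.71), a difference in response of 1.26 (SE 0.11, adjusted p = 2.94e-09). All C57 libraries fell below, and all SPRET libraries rose above, their basal group. Mvd, the mevalonate diphosphate decarboxylase, went from 59.5, 56.3 and 64.7 to 36.9, 36.2 and 38.8 TPM in C57 and from 143, 142 and 139.7 to 185, 193 and 193 in SPRET (difference 1.10, adjusted p = 2.19e-12). Sc5d, a sterol desaturase, went from 8.55, 9.01 and 7.72 to 4.79, 5.51 and 4.38 in C57 and from 20.3, 20.2 and 20.7 to 29.6, 27.7 and 31.9 in SPRET (1.20, adjusted p = 4.12e-06). Acat2 went to 4.06, 4.22 and 3.28 TPM in C57 and 49.9, 53.0 and 51.6 in SPRET (1.22, adjusted p = 1.66e-05). These 4 enzymes of the sterol pathway moved in opposite directions in the 2 strains, without overlap between basal and IL-4 libraries of either. In the time course below their response was again higher in SPRET, but their rise in SPRET did not pass the test there.

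Mylip fell in C57 from 13.6, 16.4 and 11.9 to 8.60, 8.31 and 7.35 TPM (-0.72) and rose in SPRET from 5.27, 6.00 and 4.24 to 7.28, 7.13 and 7.31 (0.43), with a difference of 1.14 (adjusted p = 2.24e-06). In NOD it went from 4.56, 4.71 and 5.20 to 6.19, 6.02 and 6.09 TPM, a difference from C57 of 1.00 (adjusted p = 2.06e-05). The difference in response was 1.54 for Scd1, 1.07 for Scd2 and 1.91 for Fads2 in SPRET, and for Fads2 1.50 in NOD and 1.14 in BALB. Fads2 in NOD was near 1 TPM already at basal, so a fall as large as that in C57 could not show there on log2(TPM + 1). The response was lower in BALB than in C57 for Abcg1 (-0.64), which rose in C57, and for Abca1 (-0.55), which fell in BALB, and it was lower in PWK for Insig1 (-0.43), which fell further there.

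With median-ratio scaling the higher and lower responses numbered 21 and 1 in SPRET, 16 and 5 in NOD, 20 and 2 in BALB and 2 and 4 in PWK, while the share of higher calls over all genes went from 73.2% to 43.5% in SPRET, 78.0% to 40.1% in NOD, 34.4% to 52.8% in BALB and 75.0% to 44.4% in PWK. Without replicate 1, 2 or 3 of every group, the count of higher responses was 6, 6 and 5 in BALB and 4, 4 and 7 in PWK, and without replicate 3 it was 14 in NOD.

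In the time course most of the falls in C57 were seen at 24 hours and not before. In C57, 1 member fell at 1 hour (1.22% of all genes tested) and 0 rose (2.73%). At 6 hours 6 rose (10.9%) and 5 fell (9.55%), which were 4 and 5 with median-ratio scaling and 3 and 6 with quantile normalization. At 24 hours 25 fell (21.1%) and 1 rose (18.2%). Between 6 and 24 hours 24 members fell in C57 (19.5%) and 1, Abca1, rose (14.4%). In SPRET, 4 fell at 1 hour (3.92%) and 0 rose (4.83%), 5 rose (16.9%) and 4 fell (13.7%) at 6 hours, and 7 rose (14.8%) and 5 fell (21.8%) at 24 hours. Between 6 and 24 hours 6 rose (6.20%) and 5 fell (16.4%) in SPRET. In these libraries the summed macrophage level was 31767 to 32210.1 TPM in C57 at basal and 21539 to 22401 at 24 hours, and 51125 to 53701 and 40135 to 40461 in SPRET. Most of it was Lyz2, in C57 at 27354 and 26923 TPM at basal and 17127 and 17936 at 24 hours. In C57, Adgre1, Csf1r, Mertk and Fcgr1 also lay lower at 24 hours than at basal, while Itgam and Cd68 lay higher, all without overlap. Itgam stood at 395 and 389 TPM at basal and 454 and 463 at 24 hours. The summed neutrophil level was 66.2 to 93.3 TPM in C57 at basal and 6.13 to 7.52 at 24 hours. Nearly all of it was S100a8, at 92.9 and 66.2 TPM at basal and 6.02 and 7.52 at 24 hours, with Ly6g at 0. The summed level of mast cells and basophils was 10.6 to 21.9 TPM in SPRET and at most 0.582 in C57. That of dendritic cells was 0.689 to 1.57 TPM in SPRET at basal and 6.23 to 6.69 at 24 hours. At both times it was Zbtb46 alone, with Flt3 and Siglech at 0. The part of these cells in the changes was not tested. The median change of the members at 24 hours was -0.47 in C57 and 0.03 in SPRET, beside -0.02 and -0.05 over all genes.

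**Figure D3:**
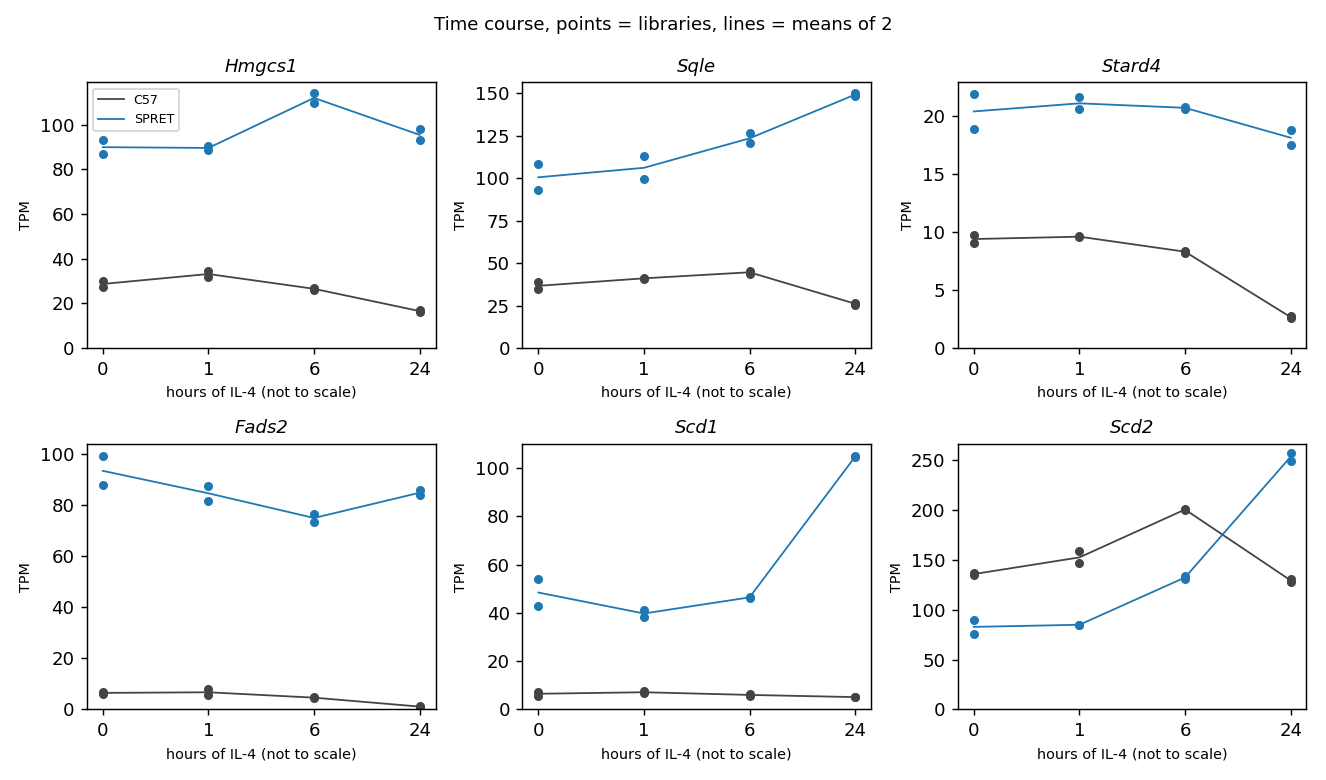
TPM of 6 members in the time course of C57 and SPRET (hours not to scale), with a point for each of the 2 libraries per time and a line through the means. Stard4 in C57 is at 8.21 and 8.37 TPM at 6 hours and 2.57 and 2.74 at 24 hours, while Scd2 in SPRET crosses above C57 at 24 hours, at 249 and 257 TPM.

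Past 2-fold, 5 members fell in C57 at 24 hours (2.91%) and 0 rose (2.85%), and 3 rose in SPRET (2.62%) and 1 fell (2.99%). Stard4 went in C57 from 9.73 and 9.02 TPM at basal to 9.63 and 9.54 at 1 hour, 8.21 and 8.37 at 6 hours and 2.57 and 2.74 at 24 hours (log2 fold change -1.50, SE 0.08, adjusted p = 2.45e-08). Fdps went from 33.3 and 29 at basal to 35.1 and 28.0 at 1 hour, 31.7 and 32.1 at 6 hours and 14.2 and 14.0 at 24 hours (log2 fold change -1.09, SE 0.10, adjusted p = 3.42e-06). For both genes the 24 hour libraries were far below those of every earlier time. Acat2 went from 8.37 and 7.04 TPM at basal to 5.99 and 6.17 at 6 hours and 2.26 and 1.79 at 24 hours (-1.52, adjusted p = 1.06e-07), and Fads2 from 7.01 and 5.94 to 4.84 and 4.38 at 6 hours and 1.52 and 0.709 at 24 hours (-1.85, adjusted p = 2.88e-06). In SPRET, Acat2 measured 48.5 and 53.8 TPM at basal and 54.7 and 56.7 at 24 hours, and Fads2 87.7 and 99.1 at basal and 83.8 and 85.9 at 24 hours, neither of which passed the test. Tm7sf2, a sterol reductase, fell in both strains, from 8.33 and 10.6 to 3.86 and 4.15 TPM in C57 (-1.06) and from 34.3 and 36.3 to 18 and 16.0 in SPRET (-1.01).

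The rises past 2-fold in SPRET were Scd1, Scd2 and Abcg1. Scd1 measured 42.7 and 54.2 TPM at basal, 38.3 and 41.2 at 1 hour, 46.3 and 46.6 at 6 hours and 105 and 104 at 24 hours (log2 fold change 1.11, SE 0.12, adjusted p = 1.05e-05). Scd2 went from 75.4 and 90.1 to 134 and 130.4 at 6 hours and 249 and 257 at 24 hours (log2 fold change 1.61, SE 0.07, adjusted p = 3.33e-09). Scd1 stood above its basal libraries at 24 hours, and Scd2 already at 6 hours. In C57, Scd2 rose from 135 and 137 to 201 and 199.9 at 6 hours (0.56) and was back at 128 and 131 at 24 hours. Abcg1 rose in both strains, in SPRET from 51.2 and 54.7 TPM to 94.7 and 89.1 at 6 hours and 123 and 118 at 24 hours, and in C57 from 83.1 and 82.6 to 133 and 125 at 6 hours and 146 and 132 at 24 hours. Its change at 24 hours was 1.17 in SPRET and 0.74 in C57. Abca1 fell in both, in C57 from 55.3 and 56.5 TPM to 33.0 and 36.0 at 6 hours and 40.8 and 41.0 at 24 hours, and in SPRET from 103 and 111 to 82.9 and 81.5 at 6 hours and 73.8 and 68.8 at 24 hours.

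At 1 hour Mylip was the member that fell in C57, from 31.6 and 30.4 to 19.5 and 17.8 TPM (-0.71, adjusted p = 0.00071). It also fell in SPRET, from 23.8 and 24.9 to 14.8 and 14.3 (-0.71), where Insig1, Lpin1 and Fads1 fell as well. Insig1 measured 95.0 and 103 TPM at basal, 68.7 and 70.7 at 1 hour and 77.3 and 89.2 at 24 hours in SPRET (-0.25). In C57 it measured 22.6 and 21.9 at basal and 14.5 and 15.7 at 24 hours (-0.53). Srebf2 fell in C57 from 60.3 and 64.5 to 38.8 and 36.4 TPM at 24 hours (-0.72, adjusted p = 5.81e-06) and stood in SPRET at 133 and 143 at basal and at 142 and 135 at 24 hours. Srebf1 fell in C57 from 38.1 and 41.6 to 30.2 and 25.4 (-0.51) and measured 33.6 and 40.8 at basal and 46.5 and 42.8 at 24 hours in SPRET, which did not pass the test.

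The difference in response between SPRET and C57 at 24 hours was higher for 24 members (12.8% of all genes) and lower for 0 (16.1%), and for 8 of them it was past 2-fold (3.09%). The 8 were Fdps, Sqle, Acat2, Stard4, Scd1, Scd2, Elovl6 and Fads2, with differences from 1.04 to 1.71. Sqle, the squalene epoxidase, fell in C57 from 38.7 and 34.6 to 25.6 and 26.6 TPM and rose in SPRET from 93.0 and 108 to 150.3 and 148. Elovl6 fell in C57 from 1.62 and 1.76 to 0.493 and 0.401 and rose in SPRET from 3.24 and 3.67 to 5.12 and 6.34. For both, no library at 24 hours overlapped the basal ones of its strain. The median difference in response was 0.60 for the members and -0.04 for all genes. At 1 hour 1 member, Insig1, differed in response (-0.49), which was lower in SPRET, beside 110 lower and 170 higher among the 12088 genes tested. At 6 hours 3 members had a higher response in SPRET and 1 a lower one, beside 707 and 640 over all genes.

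Basal levels again differed between the strains, with 30 members higher in SPRET (34.3%) and 4 lower (26.4%), and past 2-fold 21 higher (9.92%) and 0 lower (8.88%). The median basal difference was 1.13 for the members and 1.62 for the sterol enzymes, beside 0.07 for all genes, and at 24 hours the members' median reached 2.04 beside 0.02. The widest gap at 24 hours was that of Fads2, at 5.37 (SE 0.17, adjusted p = 4.52e-11), followed by Acat2 (4.23), Scd1 (4.11) and Cyp51 (3.05). Scd2 was lower in SPRET at basal (-0.71) and higher at 24 hours (0.96). Scaling by the median ratio gave 10 rises and 3 falls in SPRET at 24 hours and 7 rises and 1 fall between 6 and 24 hours, and it moved the share of higher calls over all genes from 40.6% to 50.8% and from 27.4% to 52.5%. The count of rises in SPRET was 4 without replicate 2 of SPRET at 24 hours and 4 in a fit of only the groups compared.

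No library had values identical to one of another table, so the 2 sets of C57 and SPRET libraries could be set side by side. Of the 20 members that fell in C57 in the 5 strains, 19 also fell in the time course, which is 95.0% of the first list and 76.0% of the 25 in the second. Basal levels gave 27 members higher in SPRET in both tables, 100% of 27 and 90.0% of 30. The response was higher in SPRET for 21 members in both, 84.0% of 25 and 87.5% of 24. The rises in SPRET matched less. Of 26 in the 5 strains, 7 rose in the time course, namely Abcg1, Acaca, Elovl6, Fdft1, Scd1, Scd2 and Sqle (26.9% of the first list and 100% of the second), and Insig1 and Msmo1 rose in the 5 strains but fell in the time course. With median-ratio scaling neither gene passed in either table, at adjusted p = 0.40 for Insig1 and 0.439 for Msmo1 in the 5 strains and 0.0615 and 0.0875 in the time course by limma. The shares of all called genes that recurred between the 2 sets were not worked out, so these overlaps cannot be read as particular to the members.

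In the Egr2 table, Egr2 itself was read first. It measured 23.6 and 21.3 TPM at basal in Egr2 fl/fl cells, 82.0 and 75.6 at 1 hour, 88.4 and 92.5 at 6 hours and 101 and 99.5 at 24 hours. In LyzM-Cre Egr2 fl/fl cells it was 0.859 and 0.854 TPM at basal, 3.39 and 4.09 at 1 hour, 3.10 and 5.23 at 6 hours and 4.72 and 7.05 at 24 hours. Every library labelled LyzM-Cre lay far below every Egr2 fl/fl library, and transcript remained at a low level. The summed neutrophil level was 59.4 to 62.1 TPM at basal in Egr2 fl/fl and 39.2 to 43.3 in LyzM-Cre Egr2 fl/fl. The summed macrophage level was 24357 to 25911 TPM at basal in Egr2 fl/fl and 20684 to 20723 in LyzM-Cre Egr2 fl/fl. Most of it was Lyz2, at 20194 and 22023 TPM against 16203 and 16288. Adgre1, Csf1r, Mertk and Fcgr1 lay higher in LyzM-Cre Egr2 fl/fl without overlap, with Adgre1 at 692 and 732 against 939 and 904 TPM. Itgam lay lower and Cd68 overlapped. The part of neutrophils and macrophages in the differences was not tested.

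At basal, 13 members were lower in LyzM-Cre Egr2 fl/fl than in Egr2 fl/fl (5.56% of all genes tested) and 2 were higher (5.95%). The 13 were 6 sterol enzymes (Sqle, Fdps, Lss, Cyp51, Dhcr7 and Acat2), Lpin1 and 6 fatty acid genes (Scd1, Scd2, Acly, Elovl6, Fads1 and Fads2), with differences of -0.16 to -0.63, and the 2 were the transporters Abca1 and Abcg1. At 24 hours 9 were lower (11.5%) and 2 higher (25.9%), and past 2-fold Scd1 was lower (1 member, 2.14%) and Mylip higher (1 member, 2.42%). The members' median difference was -0.16 at basal and -0.02 at 24 hours, beside 0.02 and 0.12 over all genes. Median-ratio scaling gave 12 lower and 2 higher at 24 hours and moved the share of higher calls over all genes from 69.3% to 45.9%. The count of lower members at basal was 6 without replicate 1 of basal Egr2 fl/fl, 7 without replicate 1 or 2 of basal LyzM-Cre Egr2 fl/fl and 8 in a fit of only the groups compared.

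Scd1 measured 44.9 and 46.9 TPM at basal and 44.8 and 47.6 at 24 hours in Egr2 fl/fl, and 29.2 and 29.4 at basal and 17.2 and 17.9 at 24 hours in LyzM-Cre Egr2 fl/fl. The level at 24 hours differed by -1.35 (SE 0.05, adjusted p = 4.04e-09) and at basal by -0.63. With IL-4, Scd1 did not pass the test in Egr2 fl/fl and fell in the deleted cells, with a difference in response of -0.72 (adjusted p = 8.09e-05). Scd2 went from 359 and 347 TPM to 509 and 519.8 at 24 hours in Egr2 fl/fl and from 282 and 265 to 314 and 317 in the deleted cells. It rose in both genotypes, less in the deleted cells (difference -0.34, adjusted p = 0.00369).

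**Figure D4:**
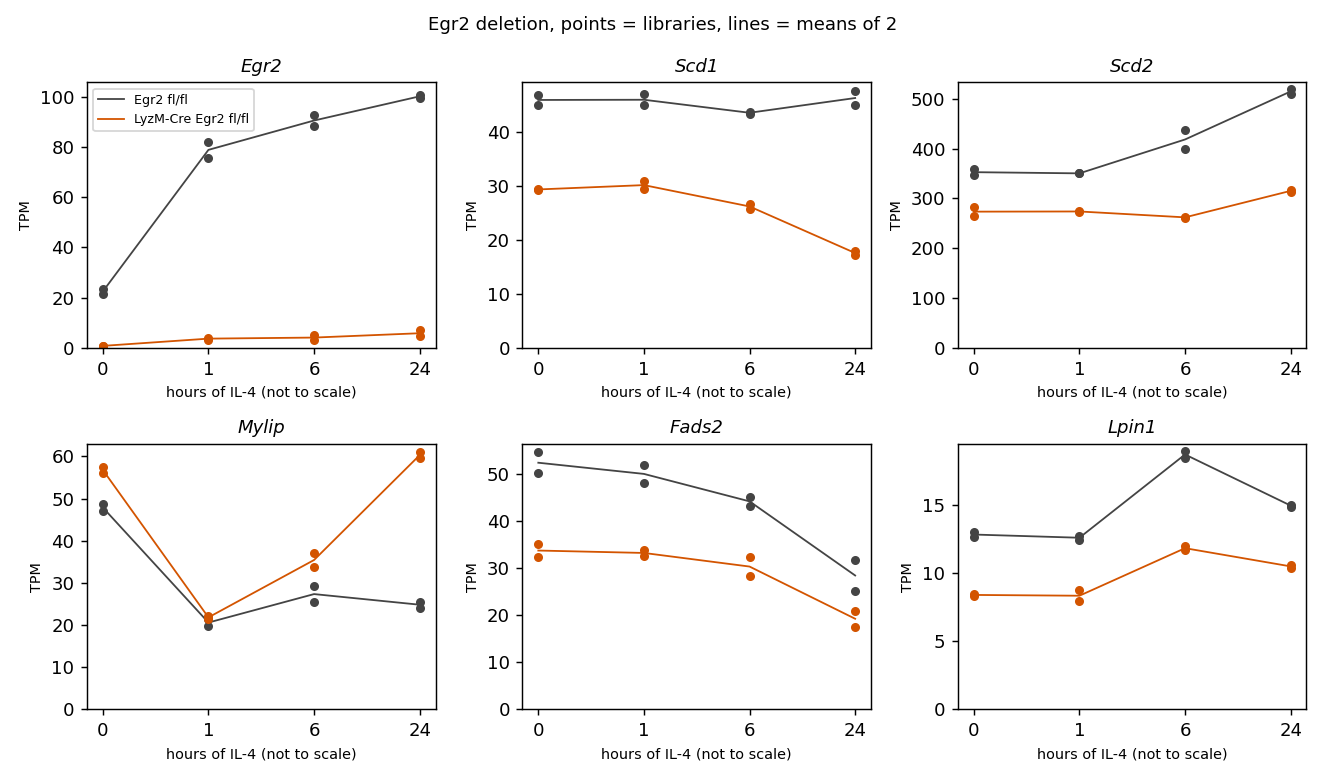
TPM of Egr2 and of 5 members over the IL-4 time course (hours not to scale) in Egr2 fl/fl and LyzM-Cre Egr2 fl/fl cells, with a point for each of the 2 libraries per time and a line through the means. Mylip falls at 1 hour in both genotypes and is back near its basal level at 24 hours in LyzM-Cre Egr2 fl/fl alone.

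Mylip showed the other large difference. In Egr2 fl/fl it went from 48.8 and 47.0 TPM to 19.7 and 21.5 at 1 hour, 29.2 and 25.5 at 6 hours and 25.6 and 24.1 at 24 hours. The deleted cells went from 57.6 and 56.0 TPM to 22.2 and 21.4 at 1 hour, 37.2 and 33.7 at 6 hours and 61.0 and 59.6 at 24 hours. The early fall was thus present in both, and the low level at 24 hours in Egr2 fl/fl alone. The response at 24 hours differed by 1.01 (SE 0.10, adjusted p = 6.8e-05), while at 1 hour it did not pass the test (-0.16, adjusted p = 1). In all, 3 members had a higher response at 24 hours in the deleted cells (8.78%; Mylip, Fdps and Fasn) and 3 a lower one (3.85%; Scd1, Scd2 and Abcg1), with 1, Mylip, past 2-fold higher (1.13%). With median-ratio scaling these were 1 and 3, and the share of higher calls over all genes went from 69.5% to 45.1%.

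The transporters differed between genotypes at basal and in their response at 6 hours. Abca1 measured 54.2 and 57.1 TPM in basal Egr2 fl/fl and 77.3 and 70.2 in the deleted cells (0.40), and 37.9 and 37.2 against 47.5 and 44.8 at 24 hours. Abcg1 measured 113 and 108 against 137 and 137 at basal (0.31) and 190.2 and 184 against 197 and 196 at 24 hours. Both transporters were higher in the deleted cells at basal without overlap. At 6 hours Abca1 measured 41.8 and 43.9 TPM in Egr2 fl/fl and 38.3 and 40.0 in the deleted cells, where its level did not pass the test (-0.13, adjusted p = 0.16). Abcg1 measured 195 and 201 against 180.0 and 183 and was lower in the deleted cells (-0.12). The response at 6 hours was lower in the deleted cells for both, by the test of the difference, at -0.53 for Abca1 (adjusted p = 0.0113) and -0.43 for Abcg1 (adjusted p = 0.00249). Srebf1, Srebf2 and Insig1 passed the test in no comparison of this table. Their basal levels were 55.5 and 50.7 against 52.6 and 51.9 TPM for Srebf1, 86.4 and 80.1 against 73.5 and 77.9 for Srebf2 and 40.0 and 40.5 against 37.8 and 34.2 for Insig1. At 24 hours they were 49.2 and 47.6 against 53.4 and 55.8, 78.7 and 72.7 against 78.0 and 80.5 and 37.5 and 39.7 against 37.1 and 38.7 TPM.

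Within Egr2 fl/fl cells 1 member fell at 1 hour (0.894%) and 0 rose (2.34%), 5 rose (16.2%) and 2 fell (9.21%) at 6 hours, and 6 rose (12%) and 6 fell (18.2%) at 24 hours. In LyzM-Cre Egr2 fl/fl the counts were 1 fall (1.20%) and 0 rises (2.93%), 5 rises (19.2%) and 4 falls (10.5%), and 9 rises (16.2%) and 4 falls (11.8%). At 1 hour Mylip was the member that fell in both. The 6 that fell in Egr2 fl/fl at 24 hours, Abca1, Fads1, Fads2, Fdps, Mylip and Sc5d, were all among the 25 that fell in C57 in the time course, which is 100% of 6 and 24.0% of 25. The like share over all genes was not worked out. Fads2 went from 54.5 and 50.2 to 25.0 and 31.8 TPM in Egr2 fl/fl and from 32.4 and 35.1 to 17.5 and 21.0 in the deleted cells, and fell in both. Hmgcs1, which fell in C57 in both other tables, measured 59.5 and 65.5 TPM at basal and 64.0 and 68.2 at 24 hours here (0.08, adjusted p = 0.423). Its basal level in C57 was 14.9, 14.5 and 14.0 TPM in the 5 strains and 30.1 and 27.3 in the time course, so levels differ between the experiments. The falls in Egr2 fl/fl numbered 3 with median-ratio scaling, with 8 rises, and 3 without replicate 1 of the basal or of the 24 hour group, and the rises in LyzM-Cre Egr2 fl/fl numbered 5 without replicate 2 of its basal group. The scaling moved the share of higher calls over all genes at 24 hours from 39.7% to 52.0% in Egr2 fl/fl and from 57.9% to 47.3% in LyzM-Cre Egr2 fl/fl, at 6 hours from 63.8% to 49.0% and from 64.6% to 47.8%, and at 1 hour in Egr2 fl/fl from 72.4% to 62.3%. The 6 hour counts of rises and falls were then 4 and 4 in Egr2 fl/fl and 5 and 5 in LyzM-Cre Egr2 fl/fl.

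The F1 cells hold both parental alleles in a single nucleus, so that the level of each allele can be set beside the difference between the inbred strains. The values are a description with 2 libraries per condition and no test, and the depth behind them is unknown. All 37 members were read in the cross of C57 and SPRET. The median log2 ratio of the SPRET to the C57 allele was 0.17 at basal, beside 0.97 between the inbred strains, and -0.01 beside 1.36 after IL-4. Over all 11325 genes read, the median allele ratio was 0.05 and 0.03. In both libraries 3.61% were past 2-fold higher and 2.83% lower on the SPRET allele at basal, beside 1 and 0 of the 37 members. After IL-4 these shares were 2.26% and 1.42%, again beside 1 and 0 members. Of 19 members past 2-fold between the inbred strains at basal, 16 were within 2-fold between the alleles (84.2%), and after IL-4 22 of 23 were (95.7%). Among the 11069 genes read that are also listed in the 5 strains, 1207 of 1749 past 2-fold between the strains were within 2-fold between the alleles at basal (69.0%) and 1584 of 2028 after IL-4 (78.1%), and the difference between members and all genes was not tested.

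**Figure D5:**
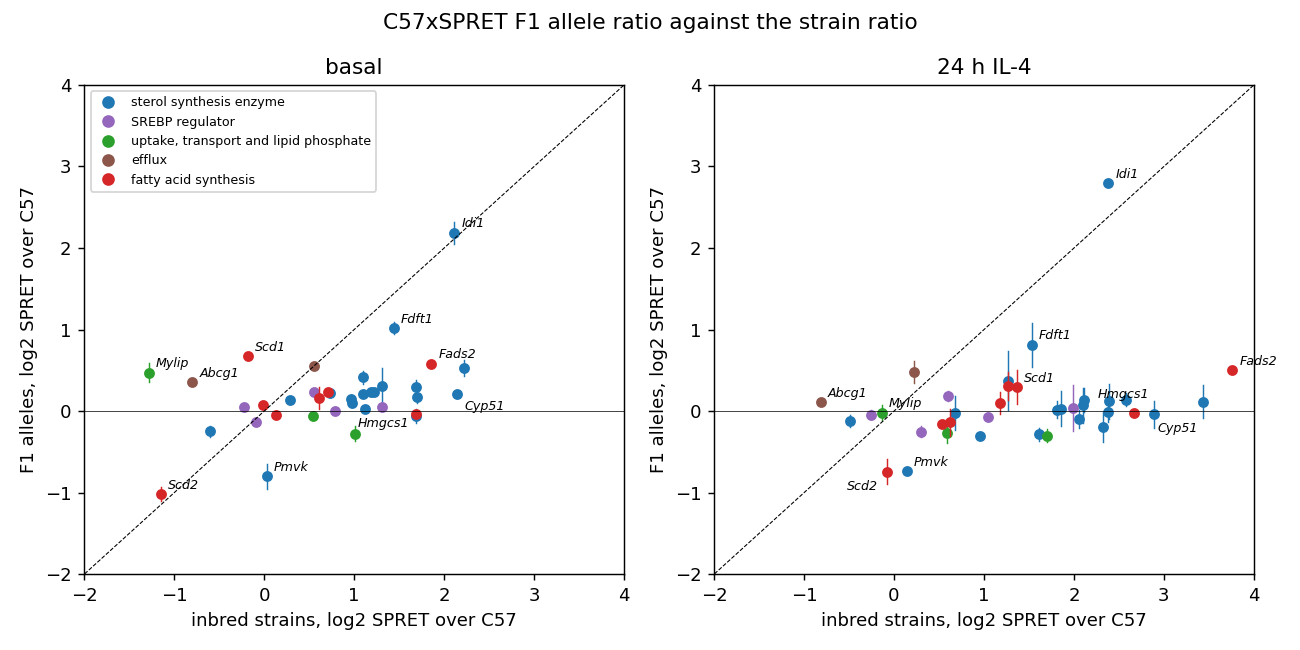
Log2 ratio of the SPRET to the C57 allele in F1 cells (vertical) against the log2 ratio of SPRET to C57 in the inbred strains (horizontal), on log2(TPM + 1), at basal and after 24 hours of IL-4. Points are the 37 members coloured by role, vertical bars span the 2 F1 libraries, and the dashed line marks equal ratios. Most members lie near 0 on the vertical axis, while Idi1 lies near the dashed line.

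Hmgcs1 measured 126 and 131 TPM on the C57 allele and 127 and 134 on the SPRET allele at basal, a log2 ratio of 0.02 beside 1.12 between the strains. For Cyp51 the C57 allele stood at 67.3 and 72.1 and the SPRET allele at 78.8 and 82.7 (0.21 beside 2.14), and for Fasn the C57 allele at 59.5 and 75.3 and the SPRET allele at 57 and 74.3 (-0.04 beside 1.69). These 3 genes had alleles at like levels in F1 cells and a wide difference between the inbred strains. Insig1 (0.05 beside 1.31) and Fads2 (0.58 beside 1.85) also had smaller allele ratios.

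Idi1 kept a wide allele ratio in F1 cells. Its C57 allele stood at 2.15 and 2.96 and its SPRET allele at 14.8 and 15.4 at basal, a log2 ratio of 2.19 beside 2.11. Scd2 was lower on the SPRET allele, at 67.5 and 66.2 against 129.7 and 143 (-1.02 beside -1.15), and Fdft1, the squalene synthase, was higher on it (1.02 beside 1.44). These 3 were the members with a mean allele ratio past 2-fold at basal. Only Idi1 was past 2-fold in both libraries, the rule behind the shares over all genes. Pmvk, the phosphomevalonate kinase, had an allele ratio of -0.80 with an inbred ratio of 0.03, and Mylip 0.47 with -1.28, so the sign of Mylip was opposite. With IL-4 the 2 alleles moved together for Scd1 (1.41 on the C57 and 1.03 on the SPRET allele), Scd2 (1.09 and 1.37), Fads2 (-0.53 and -0.62) and Mylip (-1.55 and -2.04).

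In the cross of C57 and NOD, 13 of the 37 members were read on both alleles, and the 5 past 2-fold between the inbred strains at basal were all within 2-fold between the alleles by their means, as were 517 of 597 over all genes listed in both tables (86.6%). Scd2 stood at 56.4 and 66.4 on the C57 allele and 42.8 and 64.8 on the NOD allele, a log2 ratio of -0.21 beside -3.60. Abcg1 had -0.32 beside -1.77, Stard4 0.16 beside -1.60 and Mylip 0.21 beside -1.36. Lpin1 differed between its libraries, with 29.6 and 47.1 on the C57 allele and 34.2 and 18.4 on the NOD allele (-0.55 beside -1.83), and without replicate 1 it was past 2-fold, leaving 4 of the 5 within.

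A further 20 genes of sterol and fatty acid metabolism were read as a list beside the members, 19 of them tested in the 5 strains. In C57, 2 of them rose (15.0% of all genes tested) and 6 fell (20.5%) at 24 hours, with the largest falls in Acss2, an acetyl-CoA synthetase (-2.07), Acsl1, an acyl-CoA synthetase (-1.37), and the malic enzyme Me1 (-1.21). In SPRET 6 rose (31.4%) and 3 fell (12.9%), among them Nr1h3, which encodes a liver X receptor (-1.14) and was higher in SPRET than C57 at basal (2.36). BALB had 0 rises (9.45%) and 8 falls (24.8%), NOD 9 (28.2%) and 3 (6.07%), and PWK 7 (18.6%) and 2 (6.08%). In the time course, 3 of 20 rose (18.2%) and 7 fell (21.1%) at 24 hours in C57, where Acss2 fell by 2.65, and the same counts held in SPRET (14.8% and 21.8%). In Egr2 fl/fl, 3 rose (12%) and 7 fell (18.2%) at 24 hours, including Acss2 (-1.98).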

How the data were processed

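RNA-seq of BMDMs was analysed from tables deposited by the authors. Their TPM values, per the labels and methods, came from reads mapped with STAR to a genome of each strain, shifted to mm10 and counted over exons with HOMER; the TPM of the listed genes sum to 602020 to 690215 per library. F1 TPM were split by the authors between alleles using reads over variants. Some genes stand at 0 in the deposited values, such as Hmgcs1 on both alleles of the C57 and NOD cross. Genes were taken as read here where every allele value was above 0 and at least 1 of them reached 1 TPM. The deposited tables also hold the authors' fold changes and p-values, which were not used, and 8 columns of human cells were not used here.

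Genes reaching 1 TPM in 2 or more libraries (11907 in the 5 strains, 12088 in the time course, 12079 in the Egr2 table) were fitted on log2(TPM + 1) with limma 3.58.1 (R 4.3.3), 1 model per table over all its groups, with trend and Benjamini-Hochberg adjustment over all genes. The scripts were tested on simulated data. Per-library values are given for members past 2-fold, up to 12 per comparison, and for Srebf1, Srebf2, Insig1, Abca1 and Abcg1. The members, gene lists and tests were chosen with earlier results of these data known. Also tried were median-ratio and quantile scaling, other pseudocounts and filters, robust moderation, fits of only the groups compared, a replicate block and leaving out libraries. Libraries of 4.69 to 32.9 M tags set the precision of low genes.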

Additional observations from a re-analysis of the deposited data

Results flagged for a closer look

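These members were singled out because the test of the difference in response to IL-4 between a strain or genotype and its reference passed, with a difference above 2-fold; the values are differences in the log2 response. In the 5 strains, the response in SPRET minus that in C57 was 1.26 for Hmgcs1, 1.10 for Mvd, 1.20 for Sc5d, 1.22 for Acat2, 1.14 for Mylip, 1.54 for Scd1, 1.07 for Scd2 and 1.91 for Fads2. The response in NOD minus that in C57 was 1.50 for Fads2 and 1.00 for Mylip, and in BALB it was 1.14 for Fads2. Fads2 in NOD was near 1 TPM at basal, where a fall as large as that in C57 could not show. In the time course, the response at 24 hours in SPRET minus that in C57 was 1.09 for Fdps, 1.04 for Sqle, 1.65 for Acat2, 1.35 for Stard4, 1.39 for Scd1, 1.68 for Scd2, 1.49 for Elovl6 and 1.71 for Fads2. Acat2, Scd1, Scd2 and Fads2 were thus among those of both tables. In the Egr2 table, the response of Mylip at 24 hours in LyzM-Cre Egr2 fl/fl minus that in Egr2 fl/fl was 1.01.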

How the results depend on the processing

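There were 34 single-member changes past 2-fold (with IL-4, in the response between strains or genotypes, or between genotypes at 24 hours). They kept their direction and an adjusted p under 0.05 under the 464 alternatives run. Whether they also stayed past 2-fold was not counted. Smaller calls held less: of 796 member calls over all contrasts, 66 no longer passed with median-ratio scaling and 68 with quantile normalization. Counts of members moved more, and the cause was not tested. Median-ratio scaling gave 17 instead of 26 rises in SPRET, 10 instead of 5 falls in PWK, 20 instead of 13 higher responses in BALB, 2 instead of 12 in PWK and 3 instead of 6 falls in Egr2 fl/fl at 24 hours. Quantile normalization gave 17 rises in SPRET, 5 instead of 9 in NOD, 9 falls in PWK and 4 higher responses in PWK. Fits of only the groups compared, which have fewer samples, gave 12 instead of 20 falls in C57, 8 higher responses in BALB, 5 in PWK, 4 instead of 7 rises in SPRET in the time course and 8 instead of 13 lower members at basal in LyzM-Cre Egr2 fl/fl. Leaving out libraries gave 3 to 4 falls in PWK and higher responses of 5 to 6 in BALB, 14 to 16 in NOD and 4 to 7 in PWK. It gave 4 to 7 rises in SPRET in the time course, 3 to 4 falls in Egr2 fl/fl, 5 to 9 rises in LyzM-Cre Egr2 fl/fl and 6 to 9 lower members at basal there. With a pseudocount of 0.1 TPM, 8 of 8 members in place of 5 of 5 were within 2-fold between the alleles of the C57 and NOD cross.

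With replicate number as a block, 20 members fell in C57 and 26 rose in SPRET, and 26 fell in C57 in the time course, and the block moved no count by over 1.5 times. Same-numbered libraries deviated together with r of -0.085 to 0.333 in the 5 strains, -0.143 to 0.087 in the time course and -0.045 to 0.002 in the Egr2 table. In no group did every pair exceed 0.1, and the labels do not say what a number marks. Depth limits genes near 1 TPM, such as Idi1 outside SPRET, and allele values have no known depth. Leaving out 1 of 2 libraries assumes that the remaining one varies like the other groups.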
